A study of Mus musculus with 3 samples.

Results

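This account covers 34 genes of glycolysis and oxidative metabolism, taken as a list from 4 functional groups, and the CG regions with a methylation difference that lie in them during mouse osteoclast differentiation in culture. All 34 were found among the 49993 genes of the RefSeq annotation of mouse build GRCm38.p6, and a region was assigned to a gene where it shared at least 1 bp with the gene's span. The group of glucose uptake and glycolysis held 12 genes (Slc2a1, Hk1, Hk2, Gpi1, Pfkl, Pfkp, Pfkfb3, Aldoa, Eno1, Pkm, Ldha and Ldhb). Pyruvate entry and the citrate cycle held 12 (Pdk1, Pdk2, Cs, Idh1, Idh2, Idh3a, Ogdh, Sdha, Sdhb, Fh1, Mdh1 and Mdh2), the respiratory chain and ATP synthase held 6 (Ndufs1, Ndufa9, Uqcrc1, Cox4i1, Cycs and Atp5a1), and linked enzymes with 1 regulator held 4 (Got1, Gldc, Acly and Hif1a). Of the 547915 entries in the 3 deposited region tables, 408 lay in these genes.

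DNA methylation was read by whole-genome bisulfite sequencing, which converts unmethylated cytosines and leaves methylated ones unchanged. There was 1 library for each of 3 stages, all from bone marrow of C57BL/6 mice aged 11 weeks. Bone marrow macrophages (BMM) were the non-adherent cells left after 24 h of marrow culture, grown for 72 h in M-CSF, a macrophage growth factor, at 50 ng/mL. Preosteoclasts (pOC) were BMM given RANKL, the cytokine that drives osteoclast formation, at 100 ng/mL together with M-CSF at 30 ng/mL for 24 h, and mature osteoclasts (mOC) had the same 2 factors for 72 h or longer. All stages therefore share M-CSF and the culture of marrow cells, and the number of animals behind each library is not given in the sources used here. Since a stage has 1 library, the spread between cultures is unknown, a p-value speaks only of the reads of 2 libraries and not of 2 conditions, and intervals cover counting error only.

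Glycolysis splits glucose to pyruvate in the cytosol, and pyruvate is either reduced to lactate or carried into mitochondria, where the citrate cycle feeds electrons to the respiratory chain and ATP synthase. Osteoclasts are rich in mitochondria, and resorbing bone is known to use much energy. Methylation of CG sites in mammals is high across most gene bodies and low in CG-rich promoters, where high methylation goes with a silent gene.

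The coordinates of promoter windows show where the members' starts stood relative to the listed regions. RefSeq promoter windows, from 250 bases before to 50 bases after a start, were available for 30 members (46 windows). No window was overlapped by a region listed for pOC against BMM or for mOC against BMM, and 1 was overlapped for mOC against pOC, at the second annotated start of Pdk1. Over all 32851 windows of the table the shares were 2.93% for pOC against BMM, 2.52% for mOC against pOC and 0.743% for mOC against BMM. The windows of Pdk1, whose product is a kinase that switches off pyruvate dehydrogenase, are shown with that of Idh1, which encodes the cytosolic NADP-dependent isocitrate dehydrogenase and had a listed region 277 bp from its start. They are from RefSeq, build GRCm38.p6, each 5′ to 3′ on the gene's strand, with every CG dinucleotide in capitals.
Pdk1, first start, chr2:71872974-71873273, plus strand: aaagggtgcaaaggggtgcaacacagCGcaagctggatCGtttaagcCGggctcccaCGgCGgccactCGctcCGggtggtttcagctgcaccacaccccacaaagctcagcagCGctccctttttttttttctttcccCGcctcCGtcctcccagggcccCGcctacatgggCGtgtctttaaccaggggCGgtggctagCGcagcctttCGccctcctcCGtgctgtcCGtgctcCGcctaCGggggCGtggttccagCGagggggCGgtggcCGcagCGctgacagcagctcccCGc
Pdk1, second start, chr2:71874654-71874953, plus strand: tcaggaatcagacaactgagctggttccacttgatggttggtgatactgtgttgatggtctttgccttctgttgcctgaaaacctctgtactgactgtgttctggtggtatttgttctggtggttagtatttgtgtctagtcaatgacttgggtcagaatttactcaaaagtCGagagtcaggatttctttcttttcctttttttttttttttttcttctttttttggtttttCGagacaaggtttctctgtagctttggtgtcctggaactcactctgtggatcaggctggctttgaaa
Idh1, start at 65186479, chr1:65186430-65186729, minus strand: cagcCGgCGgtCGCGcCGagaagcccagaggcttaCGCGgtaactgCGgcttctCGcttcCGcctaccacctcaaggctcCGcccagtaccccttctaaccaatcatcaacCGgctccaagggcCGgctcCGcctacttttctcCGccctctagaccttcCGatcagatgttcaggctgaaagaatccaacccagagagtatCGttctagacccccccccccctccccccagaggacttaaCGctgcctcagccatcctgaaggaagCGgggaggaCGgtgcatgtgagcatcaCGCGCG

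The first Pdk1 window held 25 CG and the Idh1 window 23 CG, whereas the second Pdk1 window held 2. Across the 46 windows of members the median was 21 CG, against 7 over all windows, with a median GC content of 61.7% against 52.7%. The ratio of CG observed to CG expected from base content had a median of 0.713 in the members' windows and 0.384 over all. The letters ACGTG, searched on both strands, occurred in 21 of the 46 windows (45.7%), which belonged to 14 genes including Slc2a1, Hk2, Ldha and Hif1a, against 19.6% of all windows. By gene this was 14 of the 30 members with a window, against 5886 of 27025 genes. The letters hold a CG themselves, and the members' windows are richer in CG, an influence that was not tested. Several windows of Ogdh overlap each other, and all of its windows hold the letters. That is a count of letters and says nothing of binding.

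The region over the second Pdk1 start, chr2:71874802-71875001, shared 152 bp with the printed window, including both of its CG dinucleotides. Its methylation level, the percentage of methylated reads among all reads over the region's cytosines, was 57.5% in mOC (exact 95% interval 40.9 to 73.0, 40 reads) and 33.3% in pOC (15.6 to 55.3, 24 reads). The difference of 24.2 points had an interval of -0.99 to 44.9 that includes 0, and Fisher's exact test gave an adjusted p of 0.0873. The region 298 bp from that start, chr2:71875202-71875601, had more reads, but summed over 18 cytosines, against 6 in the region over the start. Its higher count therefore does not by itself fix its level better. This region was listed in both tables that hold pOC. It stood at 94.1% in BMM (101 reads), 64.7% in pOC (136 reads) and 90.8% in mOC (98 reads). The dip in pOC was 29.4 points below BMM, with an adjusted p of 1.93e-06 by Fisher's exact test. The authors listed regions for their difference on the same reads, so p-values here and below are too small.

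At Idh1, the region chr1:65186003-65186202 stood at 20% in mOC (5.73 to 43.7, 20 reads) and at 0% in pOC (0 to 12.8, 27 reads). The region 1077 bp from the start, chr1:65185203-65185402, had the high level common in gene bodies, with 95.7% in BMM (46 reads), 60% in pOC (70 reads) and 100% in mOC (64 reads). Mdh2, which encodes the mitochondrial malate dehydrogenase, likewise had a region with low levels 1552 bp from its start, chr5:135780201-135780400, at 29.2% in mOC (24 reads) and 0% in pOC (0 to 10.9, 32 reads). Fh1, which encodes fumarase, had chr1:175624603-175624802 at 40.9% in pOC (44 reads) against 16.7% in BMM (36 reads), 833 bp from its start. In these 3 regions of Idh1, Mdh2 and Fh1 the levels of both libraries shown were below those usual in the gene bodies, and the later stage was the higher one.

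In all, 10 of 200 listed regions lay within 2000 bp of a start for pOC against BMM, 11 of 152 for mOC against pOC and 2 of 23 for mOC against BMM, over the 30 members with a start in the promoter table. The median distance to the nearest start was 17074 bp, 14874 bp and 28736 bp in those 3 comparisons. Neither the counts near a start nor these distances were set against all listed regions. They cannot be called particular to the members. Ldha, which encodes a subunit of the enzyme that reduces pyruvate to lactate, had 2 of the 10 in pOC against BMM. Its region chr7:46848201-46848400 stood at 20% in pOC (20 reads) against 85.7% in BMM (21 reads), 1119 bp from the start. Its region chr7:46849001-46849200 stood at 68.6% in BMM (35 reads), 16.7% in pOC (30 reads) and 64.3% in mOC (42 reads). The others near a start were in Hk1, Pdk2, Uqcrc1, Gldc and Sdha, besides those of Pdk1, Idh1, Mdh2 and Fh1 described above.

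For pOC against BMM, 216 of the 251946 listed regions lay in member genes, and 210 of these were lower in pOC and 6 higher. The background was close to this: 92.9% of all listed regions were lower in pOC, and 95.3% of those in protein-coding genes, against 97.2% in the members (exact 95% interval 94.1 to 99.0). The 6 higher ones compare with 7.06% of all listed regions and 4.68% of those in protein-coding genes. At least 1 region lay in 33 of the 34 genes, Aldoa being the exception, while 65.7% of all protein-coding genes held at least 1. In 28 genes every listed region was lower in pOC, and in 5 genes (Hk1, Pfkfb3, Fh1, Got1 and Gldc) there were regions of both directions, as in 22.9% of the protein-coding genes with a region. Over the 216 regions the level was 56.4% in pOC and 86.0% in BMM, a difference of -29.6 points, against -26.7 points over all listed regions and -27.9 points over those in protein-coding genes. The authors listed a region only where the levels differed by at least 20 points, so the size of a difference is partly set by the listing.

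Fisher's exact test of the reads, adjusted over all regions of the table, had an adjusted p of at most 0.05 in 204 of the 216 regions, against 91.3% of all listed regions. Since the regions were listed for their difference on these reads, such counts were in large part set by the listing in every comparison. The deposited reads are summed over the cytosines of a region, so 1 DNA fragment can enter several times. Reads were also counted only once per strand and region, as if every fragment covered all cytosines of its strand. These reduced counts were compared by a chi-square score test of proportions, not by Fisher's exact test. Of the 216 regions, 58 then had an unadjusted p of at most 0.05 and 0 an adjusted one. No share over all listed regions is given for the reduced counts, here or in the comparisons below. They are therefore no result about the members. The number of regions in a gene followed its length, with a Spearman correlation of 0.90 across the 34 genes, which are not independent replicates. Per 100 kb of gene, the members held 20.3 regions and all protein-coding genes 13.01.

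**Figure D1:**
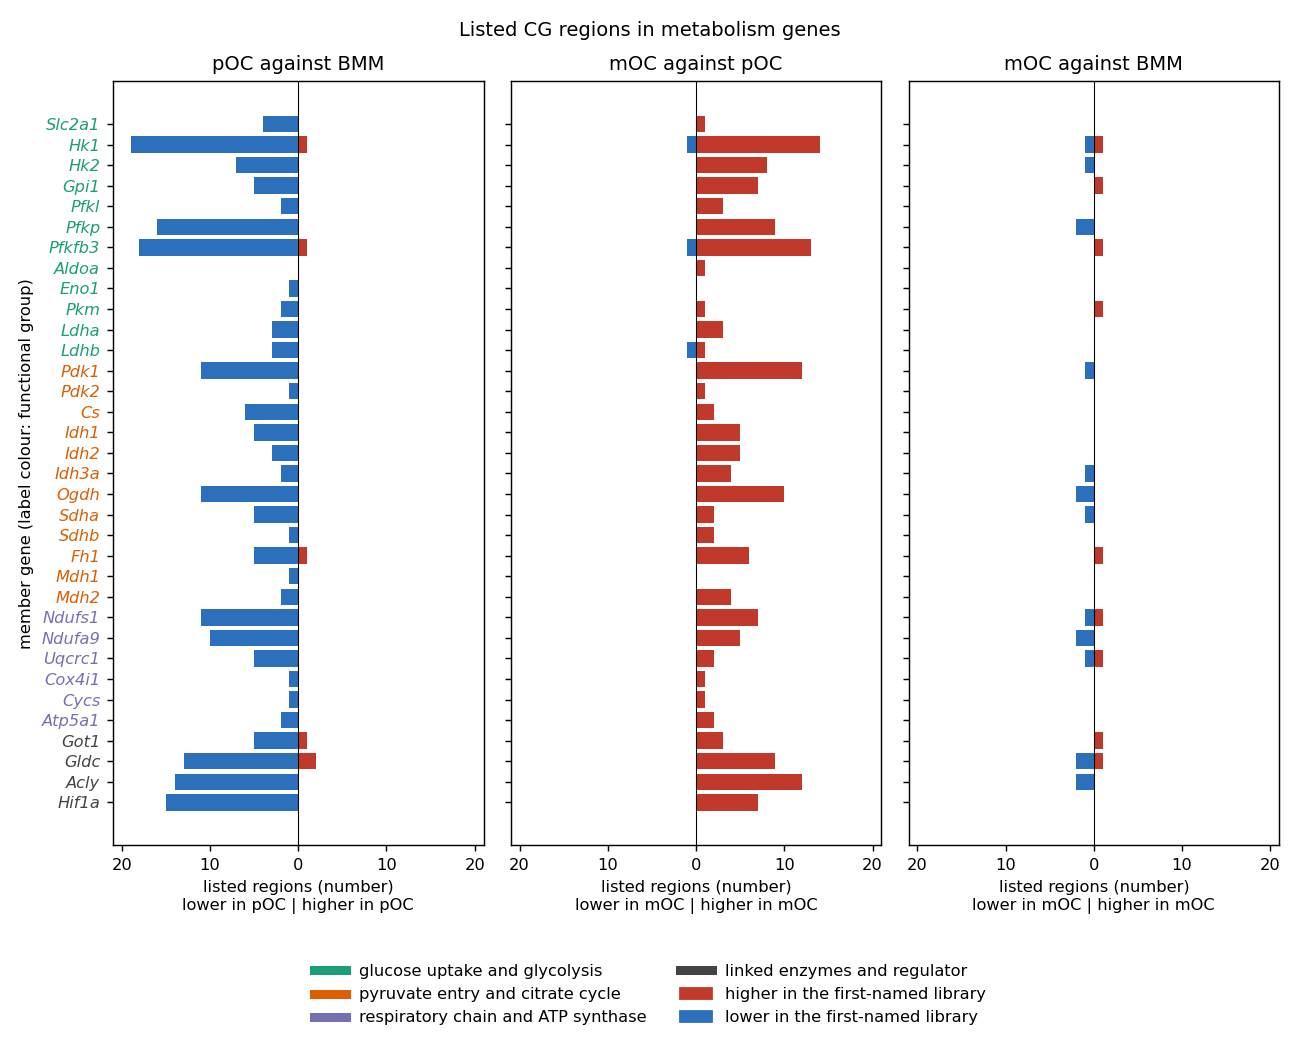
Number of listed CG regions in each of the 34 metabolism genes (rows, label colour by functional group) for pOC against BMM, mOC against pOC and mOC against BMM. Bars to the left count regions lower in the stage named first and bars to the right regions higher in it: 210 of 216 point left in the first panel, 163 of 166 point right in the second, and the third holds 17 to the left and 9 to the right.

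Among the glycolytic genes, 80 of 82 regions were lower in pOC than in BMM, with levels of 54.8% in pOC and 85.6% in BMM. Hk1, a hexokinase that traps glucose in the cell, had 19 lower regions and 1 higher, in the longest span of the list (111 kb). Pfkfb3, which makes the activator of phosphofructokinase, had 18 lower and 1 higher, and Pfkp, the platelet form of phosphofructokinase, had 16 lower. The largest difference of the group was that of Ldha given above, at -65.7 points (-80.8 to -36.0, adjusted p 3.16e-04 by Fisher's exact test). Slc2a1, the glucose transporter GLUT1, had chr4:119114403-119114602 at 44.1% in pOC (34 reads) against 97.8% in BMM (45 reads). Pfkp had chr13:6603404-6603603 at 48.6% in pOC (35 reads) against 100% in BMM (36 reads). Pfkfb3 had chr2:11539002-11539201 at 46.2% in pOC (26 reads) against 95.5% in BMM (22 reads). In the last 3 of these genes BMM was nearly fully methylated in the region and pOC was below 50%. Over all regions of a gene, the differences ran from -49.6 points in Ldha to -25.8 points in Ldhb. Few regions lay in the shorter genes: Gpi1, the isomerase after hexokinase, had 5, Pfkl, the liver form of phosphofructokinase, had 2, Pkm, the muscle-type pyruvate kinase, had 2, and Eno1, an enolase, had 1. All of these were lower in pOC.

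In the citrate cycle group, 53 of 54 regions were lower in pOC, and each of the 12 genes held at least 1 of them. The level over the 54 regions was 56.5% in pOC against 85.0% in BMM. Sdha, the flavoprotein subunit of succinate dehydrogenase, had the largest difference, with chr13:74344604-74344803 at 43.2% in pOC (37 reads) against 97.1% in BMM (34 reads). Idh2, the mitochondrial NADP-dependent isocitrate dehydrogenase, had chr7:80097001-80097200 at 41.7% in pOC (24 reads) against 94.3% in BMM (35 reads). Pdk1 had chr2:71901802-71902001 at 43.8% in pOC (16 reads) against 95% in BMM (20 reads), within 11 lower regions. Its density of 3.59 regions per 10 kb was the highest of this group, but below 3.85 in Uqcrc1 and 3.67 in Ndufa9. Ogdh, the first subunit of the oxoglutarate dehydrogenase complex, also held 11 lower regions. Cs, the synthase that opens the cycle, had 6, down to chr10:128347601-128347800 at 52.4% in pOC (21 reads) against 94.7% in BMM (19 reads). Sdhb, the iron-sulphur subunit of succinate dehydrogenase, Mdh1, the cytosolic malate dehydrogenase, and Pdk2, another pyruvate dehydrogenase kinase, had 1 region each.

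All 30 regions of the respiratory chain group were lower in pOC, with levels of 54.4% in pOC and 87.2% in BMM. The difference in Cox4i1 was the greatest of any member region. Cox4i1, a subunit of cytochrome c oxidase, spans 5985 bp and held a single region in each table that has pOC. That region, chr8:120670001-120670200 with 4 cytosines, stood at 89.5% in BMM (75.2 to 97.1, 38 reads), 11.5% in pOC (2.45 to 30.2, 26 reads) and 85.0% in mOC (62.1 to 96.8, 20 reads). The loss in pOC was -77.9 points (-87.8 to -55.8, adjusted p 3.13e-08 by Fisher's exact test), and mOC stood 73.5 points above pOC (46.1 to 85.8, adjusted p 2.70e-05 by the same test). Uqcrc1, a core subunit of complex III, had chr9:108943201-108943400 at 75% in BMM (16 reads), 16.7% in pOC (60 reads) and 44.4% in mOC (18 reads). Ndufs1, the largest subunit of complex I, had 11 regions, and its chr1:63156603-63156802 stood at 36.1% in pOC (36 reads) against 87.5% in BMM (32 reads). That last region also lies in the overlapping gene Ino80dos. Ndufa9, an accessory subunit of complex I, had 10 regions and Atp5a1, the alpha subunit of ATP synthase, had 2. Cycs, which encodes cytochrome c, had 1, at 55.9% in pOC (59 reads) against 77.1% in BMM (96 reads).

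Hif1a, the oxygen-regulated transcription factor that raises glycolytic genes and Pdk1, had 15 regions, all lower in pOC, at 65.1% in pOC and 92.8% in BMM over the 15. Its largest difference was at chr12:73939201-73939400, also within the gene Gm15283, with 95% in BMM (20 reads), 42.1% in pOC (19 reads) and 84.2% in mOC (19 reads). Acly, the ATP citrate lyase that turns citrate into cytosolic acetyl-CoA, had 14 regions, all lower, down to chr11:100485202-100485401 at 40.7% in pOC (27 reads) against 94.1% in BMM (17 reads). Got1, the cytosolic aspartate aminotransferase, had 5 lower and 1 higher, and Gldc, the glycine decarboxylase of mitochondria, had 13 lower and 2 higher.

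The 6 regions higher in pOC mostly lay where BMM was low. Hk1 chr10:62374801-62375000 stood at 23.6% in pOC (55 reads) against 3.57% in BMM (28 reads). Got1 chr19:43521801-43522000 stood at 64.7% in pOC (34 reads) against 36.7% in BMM (30 reads). Gldc chr19:30136001-30136200 stood at 56.2% in pOC (16 reads) against 21.1% in BMM (19 reads), and Gldc chr19:30149601-30149800 at 38.5% in pOC (26 reads) against 12.8% in BMM (39 reads). The fifth was the Fh1 region given above. Pfkfb3 chr2:11512402-11512601 was the exception, at 100% in pOC (16 reads) against 70.0% in BMM (20 reads).

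For mOC against pOC, 166 of 226632 listed regions lay in member genes, and 163 of them were higher in mOC and 3 lower. The share higher was 98.2% in the members (94.8 to 99.6), against 89.1% of all listed regions and 91.6% of those in protein-coding genes. The 3 lower ones compare with 10.9% of all listed regions and 8.36% of those in protein-coding genes. Regions lay in 32 of the 34 genes, all but Eno1 and Mdh1, while 65.5% of protein-coding genes held at least 1. Both directions occurred in 3 of the 32, against 32.1% of the protein-coding genes with a region. The level over the 166 regions was 85.2% in mOC and 54.9% in pOC, a difference of 30.3 points, against 23.9 points over all listed regions and 25.2 points in protein-coding genes. Fisher's exact test had an adjusted p of at most 0.05 in 129 of the 166, against 64.8% of all listed regions. With reads counted only once per strand and region, 36 had an unadjusted p of at most 0.05 and 0 an adjusted one. The members held 15.6 regions per 100 kb and protein-coding genes 11.0.

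Gains in mOC over pOC of more than 50 points were found in Cox4i1, given above, and in glycolytic genes, Pdk1 and Gldc. Hk1 chr10:62325201-62325400 stood at 81.8% in BMM (22 reads), 23.5% in pOC (17 reads) and 90.9% in mOC (22 reads), a gain over pOC of 67.4 points (37.2 to 82.8, adjusted p 4.70e-04 by Fisher's exact test). Hk2, an inducible hexokinase, had chr6:82727801-82728000 at 89.5% in mOC (19 reads) against 29.2% in pOC (24 reads). Pfkfb3 chr2:11515602-11515801 stood at 95% in mOC (20 reads) against 38.1% in pOC (21 reads). Gpi1 chr7:34204601-34204800 stood at 88.0% in mOC (25 reads) against 33.3% in pOC (21 reads). All 4 of these glycolytic regions had fewer than 30 reads in either library, so their levels are coarse. Gldc chr19:30131201-30131600 stood at 94.9% in mOC (39 reads) against 34.8% in pOC (66 reads), a gain of 60.02 points. In the citrate cycle group, Pdk1 led with chr2:71901802-71902001 at 100% in mOC (17 reads) against 43.8% in pOC (16 reads), and 12 of its 12 regions were higher in mOC. Mdh2 chr5:135785401-135785600 stood at 90.6% in mOC (32 reads) against 50.0% in pOC (16 reads). The Ogdh region had more reads, but they are summed over 12 cytosines, against 4 in the Pdk1 and Mdh2 regions. The higher count therefore does not by itself fix its level better. In Ogdh, chr11:6311602-6312001 stood at 86.2% in mOC (65 reads) against 48.5% in pOC (101 reads). Got1 chr19:43520001-43520200 stood at 90.0% in mOC (60 reads) against 46.2% in pOC (80 reads). Acly chr11:100480202-100480401 stood at 82.9% in mOC (35 reads) against 39.6% in pOC (48 reads).

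By group, 61 of 64 regions were higher in mOC among glycolytic genes, 53 of 53 in the citrate cycle group, 18 of 18 in the respiratory chain group and 31 of 31 among the linked genes. Aldoa, the muscle-type aldolase, had its only region of any table here, at 88.9% in mOC (18 reads) against 57.9% in pOC (19 reads). Its difference of 31.0 points (2.18 to 54.0) had an adjusted p of 0.0770 by Fisher's exact test. The 3 regions lower in mOC were all in glycolytic genes. Hk1 chr10:62322201-62322400 stood at 67.6% in mOC (34 reads) against 87.8% in pOC (41 reads). Pfkfb3 chr2:11515402-11515601 stood at 72.2% in mOC (18 reads) against 95.7% in pOC (23 reads). Ldhb, which encodes the other lactate dehydrogenase subunit, had chr6:142499601-142499800 at 43.8% in mOC (16 reads) against 75% in pOC (20 reads), and its interval of -56.1 to 0.54 points includes 0. Adjusted p-values by Fisher's exact test were 0.0644, 0.0836 and 0.0975 in Hk1, Pfkfb3 and Ldhb.

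**Figure D2:**
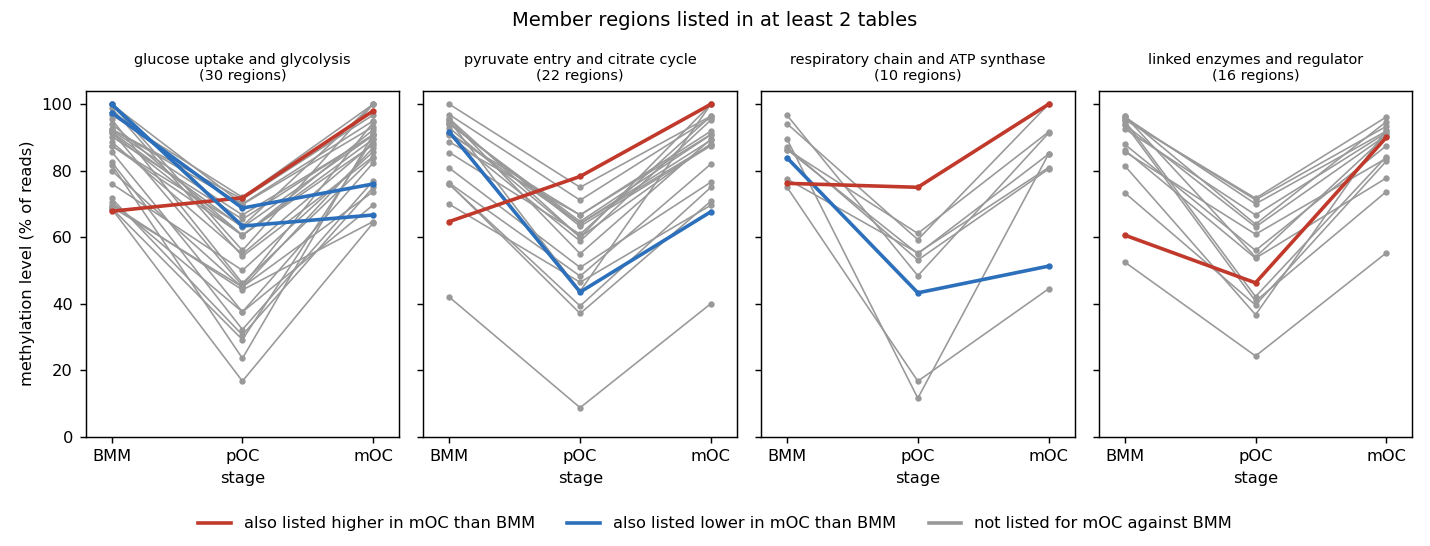
Methylation level (percent of reads) in BMM, pOC and mOC of the 78 member regions listed with the same coordinates in at least 2 tables, 1 line a region, 1 panel a functional group. Grey lines dip in pOC, as listing in both tables with pOC largely sets; red lines mark 4 regions also listed higher in mOC than in BMM, and blue lines 4 also listed lower.

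Levels in all 3 libraries could be read for 78 member regions, in 24 genes, that were listed with the same coordinates in 2 or 3 tables. Of these, 71 were lower in pOC than in BMM and higher in mOC than in pOC, a dip that listing in both tables largely sets by itself. The difference between mOC and BMM was not a criterion for that listing, but the listing limits it. Both levels had to lie at least 20 points above the same pOC level, which left little room below full methylation. The median levels over the 71 regions were 90.6% in BMM, 55% in pOC and 89.2% in mOC. Closeness of mOC to BMM is therefore partly set by the listing and does not by itself show a return. The median of mOC minus BMM was -1.04 points over the 71 regions, with a middle range of -4.88 to 3.39 points and extremes of -30.6 points in Uqcrc1 and 20.7 points in Hk2. Within 10 points lay 59 of the 71 (83.1%), against 78.5% of the 78666 regions listed the same way genome-wide. The interval of mOC minus BMM left out 0 in 2 of the 71, against 4.74% genome-wide. The closeness of mOC to BMM in these regions was therefore not particular to the metabolism genes. By group, the median of mOC minus BMM was 0.67 points in 27 glycolytic regions, -1.94 points in 21 regions of the citrate cycle, -2.92 points in 8 of the respiratory chain and -1.99 points in 15 of the linked genes.

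Several regions with many reads show the dip, but the reads are summed over cytosines. The Ldhb, Hk1 and Acly regions given first hold 16, 16 and 12 cytosines. Their higher counts therefore do not by themselves fix the levels better. Ldhb chr6:142501201-142501400 stood at 69.8% in BMM (149 reads), 44.1% in pOC (102 reads) and 64.7% in mOC (85 reads). Hk1 chr10:62331801-62332000 stood at 91.8% in BMM (73 reads), 45.3% in pOC (86 reads) and 94.5% in mOC (73 reads). Acly chr11:100493202-100493401 stood at 96.5% in BMM (57 reads), 54.0% in pOC (50 reads) and 90.6% in mOC (53 reads). In all of them mOC was within 10 points of BMM. Pdk1 held 7 such regions, including one with low levels throughout, chr2:71903602-71903801, at 41.9% in BMM (31 reads), 8.70% in pOC (23 reads) and 40% in mOC (25 reads). Mdh2 chr5:135781001-135781200 stood at 94.1% in BMM (51 reads), 64.0% in pOC (114 reads) and 87.8% in mOC (74 reads). Hif1a had 4, for example chr12:73916001-73916400 at 87.9% in BMM (58 reads), 56.0% in pOC (50 reads) and 87.5% in mOC (48 reads). In the Pdk1, Mdh2 and Hif1a regions just given, too, mOC was within 10 points of BMM. Cs chr10:128348601-128348800 stood at 80.8% in BMM (78 reads), 50.9% in pOC (57 reads) and 76.6% in mOC (64 reads). Pdk2, with its single region, stood at 75.9% in BMM (29 reads), 39.3% in pOC (28 reads) and 75% in mOC (32 reads).

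In 2 of the 71 regions mOC was below BMM beyond the counting interval. That interval takes reads summed over cytosines as independent, so it may be too narrow. Gpi1 chr7:34223201-34223600 stood at 98.8% in BMM (85 reads), 54.2% in pOC (59 reads) and 84.2% in mOC (57 reads), and mOC minus BMM was -14.6 points (interval -26.2 to -5.69). The second, Ogdh chr11:6327402-6327601, the only member region in all 3 tables, stood at 91.7% in BMM (36 reads), 43.5% in pOC (46 reads) and 67.6% in mOC (34 reads). A further 3 regions were listed lower in both pOC and mOC than in BMM but not for mOC against pOC. Ndufs1 chr1:63170403-63170802, with 14 cytosines, stood at 83.9% in BMM (93 reads), 43.2% in pOC (74 reads) and 51.3% in mOC (78 reads). Pfkp chr13:6594804-6595003 stood at 100% in BMM (24 reads), 63.3% in pOC (30 reads) and 66.7% in mOC (27 reads), and Pfkp chr13:6583204-6583403 at 97.5% in BMM (40 reads), 68.8% in pOC (32 reads) and 76.0% in mOC (25 reads).

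The remaining 4 were listed higher in mOC than in both earlier stages. Hk1 chr10:62283801-62284000, with 12 cytosines, stood at 67.8% in BMM (59 reads), 71.8% in pOC (103 reads) and 98.0% in mOC (50 reads). Got1 chr19:43520001-43520200 stood at 60.6% in BMM (33 reads), 46.2% in pOC (80 reads) and 90.0% in mOC (60 reads). Fh1 chr1:175622803-175623002 stood at 64.7% in BMM (17 reads), 78.3% in pOC (23 reads) and 100% in mOC (21 reads). Ndufs1 chr1:63172003-63172202 stood at 76.2% in BMM (21 reads), 75% in pOC (16 reads) and 100% in mOC (22 reads). In Ndufs1 the regions of both kinds lie near each other, one lower and the other higher in mOC than in BMM.

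For mOC against BMM, 26 of 69337 listed regions lay in member genes, 17 lower in mOC and 9 higher. The share lower was 65.4% (44.3 to 82.8), against 58.9% of all listed regions and 63.3% of those in protein-coding genes. The 9 higher ones compare with 41.1% of all listed regions and 36.7% of those in protein-coding genes. Regions lay in 17 of the 34 genes, 8 with lower ones only, 5 with higher ones only and 4 with both, while 43.9% of protein-coding genes held at least 1 and 42.5% of those held both directions. The level over the 26 regions was 69.3% in mOC and 81.9% in BMM, a difference of -12.6 points, against -5.29 points over all listed regions and -7.87 points in protein-coding genes. The lean to losses rests on few regions. Of the 10 that differed by at least 30 points, 50% were lower in mOC, with a difference of -5.22 points. Of the 11 with at least 30 reads in both libraries, 81.8% were lower in mOC, with a difference of -17.1 points. Both shares lie inside the interval of 44.3 to 82.8, and neither was set against all listed regions under its limit. The members held 2.45 regions per 100 kb, below the 3.10 of protein-coding genes, whereas they held more than these in both comparisons with pOC. Fisher's exact test had an adjusted p of at most 0.05 in 26 of 26 regions, against 93.8% of all listed regions. With reads counted only once per strand and region, 6 had an unadjusted p of at most 0.05 and 0 an adjusted one.

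Losses in mOC lay in all 4 groups. Acly chr11:100507202-100507401 had the largest, at 42.1% in mOC (19 reads) against 87.0% in BMM (23 reads), a difference of -44.9 points (-65.6 to -16.0, adjusted p 0.0152 by Fisher's exact test). Idh3a, the catalytic alpha subunit of the NAD-dependent isocitrate dehydrogenase, had chr9:54596201-54596400 at 51.6% in mOC (31 reads) against 87.5% in BMM (24 reads). Pdk1 chr2:71892002-71892201 stood at 54.2% in mOC (24 reads) against 85.0% in BMM (40 reads). Ogdh chr11:6328202-6328401 stood at 41.0% in mOC (39 reads) against 70.0% in BMM (60 reads), close to its region in all 3 tables. In these 4 regions mOC was between 41.0% and 54.2%, and BMM between 70% and 87.5%. Sdha chr13:74348604-74348803, 1437 bp from the start, stood at 55.6% in mOC (27 reads) against 84.2% in BMM (38 reads). Hk2 chr6:82728001-82728200 stood at 73.8% in mOC (42 reads) against 100% in BMM (49 reads), next to the Hk2 region that gained most over pOC. Hk1 chr10:62272401-62272600 stood at 73.5% in mOC (34 reads) against 100% in BMM (31 reads). Ndufa9 had 2 regions and Uqcrc1 1, with losses of 22.0 to 23.7 points.

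Gains in mOC over BMM were found in 9 regions of 9 genes. Gpi1 chr7:34201401-34201600 stood at 95% in mOC (20 reads) against 60% in BMM (25 reads). Pfkfb3 chr2:11479602-11479801 stood at 100% in mOC (16 reads) against 70.0% in BMM (20 reads). Pkm, with more reads than these, had chr9:59669601-59669800 at 90.9% in mOC (44 reads) against 65.5% in BMM (29 reads). Uqcrc1 chr9:108942401-108942600 stood at 100% in mOC (18 reads) against 75% in BMM (16 reads). The others were in Hk1, Fh1, Ndufs1, Got1 and Gldc. The counts split evenly among glycolytic genes, with 4 lower and 4 higher, and leaned to losses in the citrate cycle group with 5 lower and 1 higher, but such counts are too small to set the groups apart, and that difference was not tested.

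**Figure D3:**
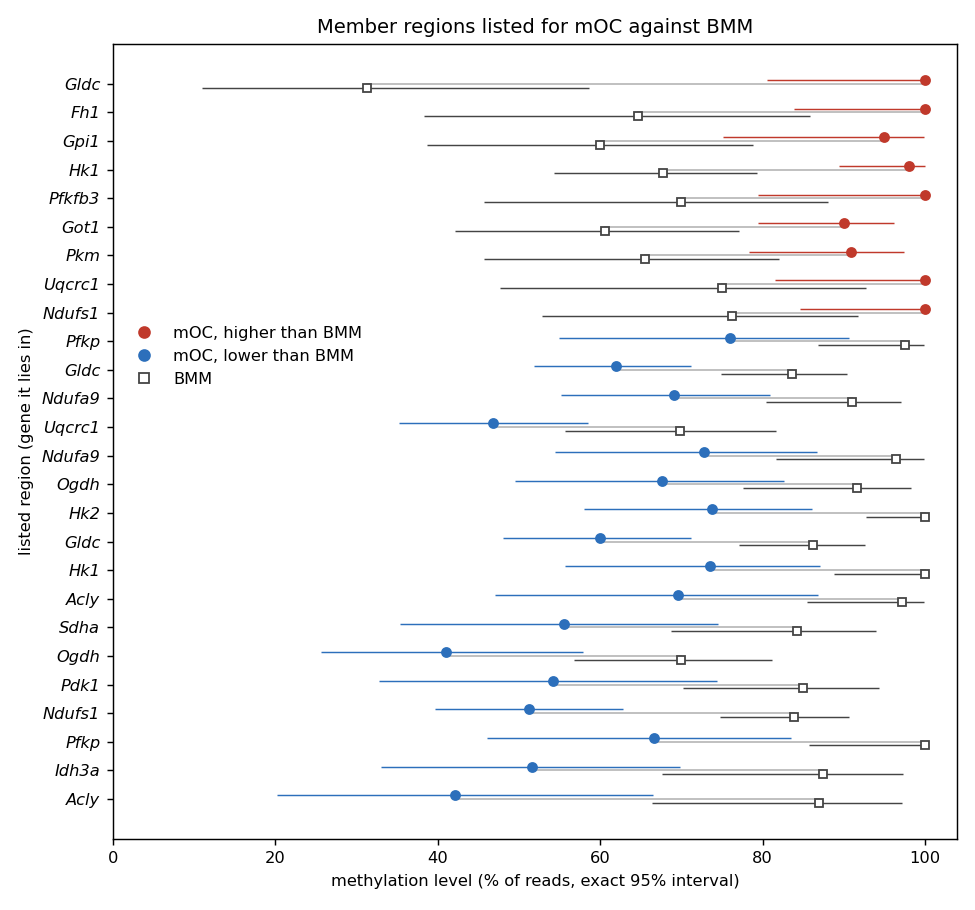
Methylation level (percent of reads) of the 26 member regions listed for mOC against BMM, with exact 95% intervals: filled circles are mOC (red where higher than BMM, blue where lower), open squares BMM. The 9 higher regions are at the top and the 17 lower ones below, and the Gldc region at 31.2% in BMM stands alone at the low end.

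In Gldc, adjoining bins differed in how they changed. The region chr19:30131401-30131600 stood at 100% in mOC (17 reads) against 31.2% in BMM (16 reads), a gain of 68.8 points (38.2 to 85.8, adjusted p 0.0010 by Fisher's exact test). This gain was known before the gene was put on the list, so it is a description only. Its level in pOC, obtained by subtracting the neighbouring bin from a region that spans both, was 43.3% (25.5 to 62.6, 30 reads). The adjoining bin chr19:30131201-30131400 behaved otherwise, with 76.2% in BMM (21 reads), 27.8% in pOC (36 reads) and, by the same subtraction, 90.9% in mOC (22 reads). In the first of these bins the intervals of BMM and pOC overlap, in the second pOC is far below BMM, and mOC is above 90% in both.

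Elsewhere in Gldc, levels differed along the gene. Towards its 3′ end, chr19:30112401-30112600 stood at 95.6% in BMM (45 reads), 71.2% in pOC (73 reads) and 93.3% in mOC (75 reads). The neighbouring chr19:30113001-30113400 was lower in mOC, at 61.9% (105 reads), than in BMM at 83.7% (98 reads), and so was chr19:30111001-30111200, at 60% in mOC (75 reads) against 86.2% in BMM (87 reads). In the middle of the gene BMM levels were lower: chr19:30128801-30129000 stood at 14.8% in pOC (27 reads) against 53.6% in BMM (28 reads), and chr19:30139601-30139800 at 26.9% in pOC (67 reads) against 55.8% in BMM (43 reads). The region chr19:30149201-30149400 stood at 52.5% in BMM (40 reads), 24.2% in pOC (33 reads) and 55.3% in mOC (38 reads). The next listed region, chr19:30149601-30149800, had the opposite sign for pOC against BMM. Close to the start, chr19:30174601-30174800 stood at 65.7% in pOC (134 reads) against 85.9% in BMM (99 reads), and chr19:30173801-30174000 at 34.6% in mOC (26 reads) against 12.5% in pOC (32 reads). The other listed regions of the gene were lower in pOC by 21.9 to 44.8 points or higher in mOC than in pOC by 24.1 to 55.6 points.

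A similar contrast of adjoining bins was found in Idh3a. The bin chr9:54596201-54596400 stood at 87.5% in BMM (24 reads), 48.9% in pOC (45 reads, by subtraction) and 51.6% in mOC (31 reads), so mOC had stayed near pOC. The next bin, chr9:54596401-54596600, stood at 100% in BMM (24 reads, by subtraction), 60.9% in pOC (46 reads) and 92.6% in mOC (27 reads). These subtractions were chosen after the values were seen, and each bin rests on 24 to 46 reads.

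**Figure D4:**
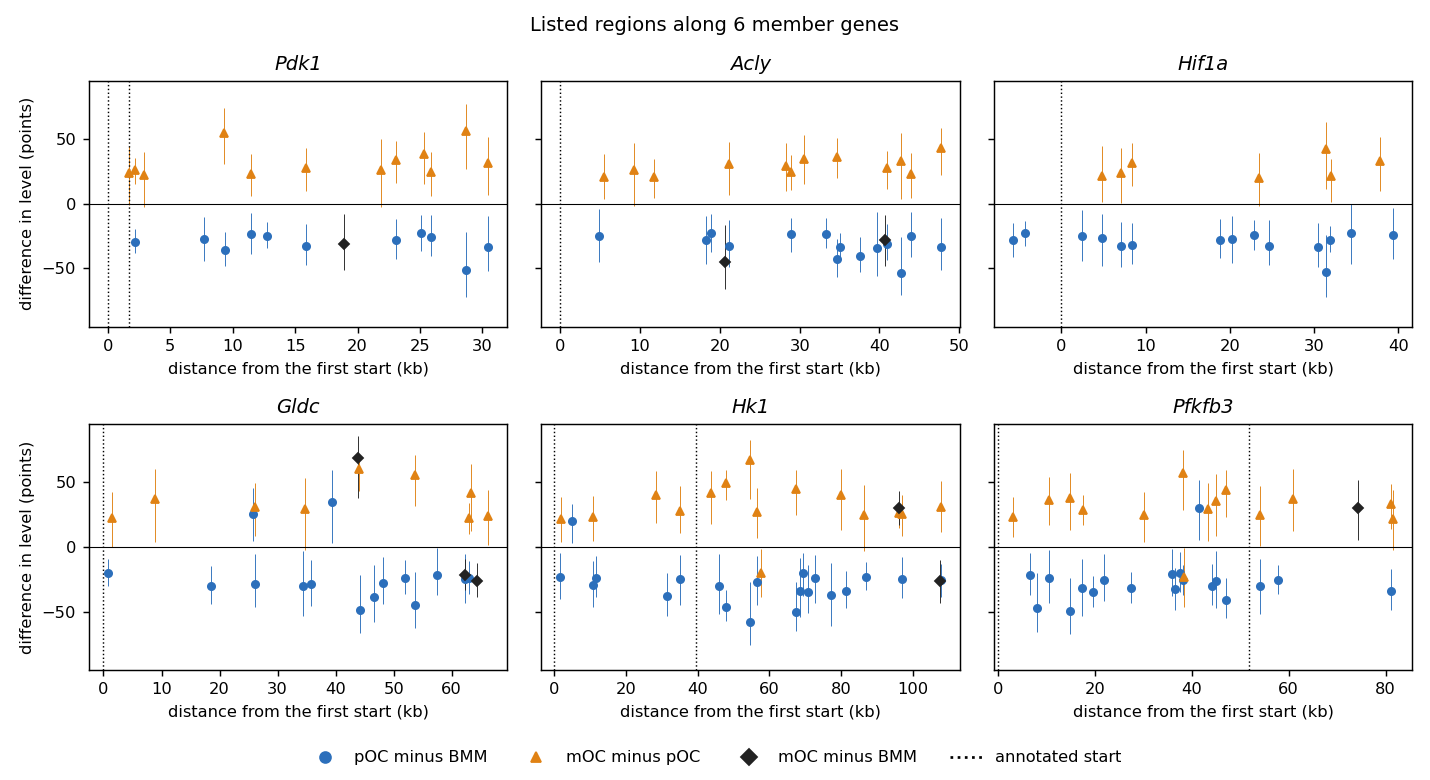
Difference in methylation level (percentage points, with Newcombe 95% intervals) of each listed region of Pdk1, Acly, Hif1a, Gldc, Hk1 and Pfkfb3 against distance from the first start in the promoter table (kb, in the direction of transcription); dotted lines mark annotated starts. Losses in pOC relative to BMM (circles) and gains in mOC relative to pOC (triangles) run along the gene bodies, with few regions at the starts and 9 regions for mOC minus BMM (diamonds) in 5 of the 6 genes.

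Other genes of the same pathways were listed by role, but with earlier results of these data known. Their directions lay near the background given above. In it, 95.3% of the regions in protein-coding genes were lower in pOC than in BMM and 91.6% higher in mOC than in pOC. At least 1 region lay in 65.7% of protein-coding genes for pOC against BMM and in 65.5% for mOC against pOC. Of 19 further genes of glycolysis and lactate transport, 9 held regions for pOC against BMM, with 66 of 69 regions lower in pOC, and 10 for mOC against pOC, with 64 of 66 higher in mOC. Their largest differences were in Slc16a1, the lactate and pyruvate carrier MCT1, at chr3:104651601-104651800, which stood at 89.3% in BMM (28 reads), 16.7% in pOC (18 reads) and 95% in mOC (20 reads). Of 22 genes of the pyruvate dehydrogenase complex and citrate cycle, 17 held regions for pOC against BMM (152 of 155 lower in pOC) and 18 for mOC against pOC (117 of 122 higher in mOC). Of 20 genes of the respiratory chain, 15 held regions for pOC against BMM (81 of 82 lower in pOC) and 12 for mOC against pOC (68 of 68 higher in mOC), led by Cox6c, another subunit of cytochrome c oxidase. Its region chr15:35932001-35932200 stood at 94.1% in BMM (17 reads), 23.5% in pOC (17 reads) and 100% in mOC (17 reads). Of 9 genes of glutamine, glycine and one-carbon metabolism, 8 held regions in each comparison with pOC, with 37 of 38 lower in pOC than in BMM and 44 of 46 higher in mOC than in pOC. Of 7 genes of oxygen sensing, all held regions for pOC against BMM (38 of 39 lower in pOC) and 6 for mOC against pOC (31 of 33 higher in mOC).

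For mOC against BMM these lists held 12 regions (8 lower in mOC), 32 (24 lower), 22 (15 lower), 8 (6 lower) and 13 (7 lower), in the order of the lists above, against 58.9% lower over all listed regions and 63.3% over those in protein-coding genes. Amt, which encodes the aminomethyltransferase that works with Gldc in glycine cleavage, had chr9:108297801-108298000 at 52.4% in mOC (42 reads) against 100% in BMM (50 reads), a loss where the leading Gldc region was a gain.

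The stages could not be checked by marker expression, since these tables hold no RNA. Listed regions in marker genes had the directions of the whole tables whatever the cell type. All 22 regions in 7 osteoclast markers and all 52 in 5 of 6 macrophage markers were lower in pOC than in BMM, but so were 8 of 8 in T cell markers and 13 of 15 in B cell markers. Neutrophil and erythroid markers held 1 and 2 regions, all lower in pOC. For mOC against BMM, 4 of 4 regions in osteoclast markers and 4 of 4 in T cell markers were lower in mOC, as were 8 of 14 in macrophage and 5 of 8 in B cell markers. A change in the mix of cells cannot be told apart from a change within cells in these libraries.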

How the data were processed

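Whole-genome bisulfite sequencing of 3 libraries (BMM, pOC and mOC, 1 a stage) was analysed from 3 region tables, each of a pair of libraries. Per the file headers, the authors deposited for each region and library a count of methylated reads, a count of all reads and their quotient as a fraction. They also deposited a p-value, a sign score of 1 or -1 for the direction, and how many cytosines a region holds. Headings give hours, which were matched to the stages. Regions were built on 200 bp bins, and those listed had a difference of at least 20 points, at least 4 cytosines and at least 16 reads in each library. Per the submitters' processing notes, FastQC, HISAT2 and StringTie and the build GRCm38 were named with no role. Neither the bisulfite aligner nor the region caller is named in these sources, and listed regions do not show a library's total depth. In member regions the median was 36.5 reads in pOC and 38 in BMM (pOC against BMM), and 32 in mOC and 33 in pOC (mOC against pOC).

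Levels were recomputed from the counts as methylated over all reads, as percentages. Levels have exact (Clopper-Pearson) and differences Newcombe 95% intervals. Both take the summed reads as independent, although 1 DNA fragment can enter several times, so they may be too narrow. The 2 libraries of a table were compared by two-sided Fisher's exact test with Benjamini-Hochberg adjustment over the whole table. The authors chose the regions for their difference on the same reads, so the p-values of both tests are too small. A level over several regions is the sum of methylated reads over the sum of all reads. Regions with at least 10 reads were used, which left out none. Of 329 distinct member regions, 26 also lie in another annotated gene. Exons and introns were not placed, since only gene spans and promoter windows of RefSeq (GRCm38.p6) were used. Of the largest differences per gene, 3 to 5 a group are named, with regions of several tables, near starts or against the main direction, and those of Gldc. The members and lists were chosen with earlier results of these data known. Computation used Python 3.11.15, pandas 2.3.3, numpy 2.4.6 and scipy 1.17.1, and was tested on simulated data. Alternatives changed the p-value, difference, read and overlap limits, the span, the weighting, and the genes and regions included.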

Additional observations from a re-analysis of the deposited data

How the results depend on the processing

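Counts of regions moved with the limits on a region, and the sign of the mean difference did not change. Where the authors' p-value was 0.001 or less, pOC against BMM kept 47 regions, 100% lower in pOC, with a difference of -34.9 points. Under the same limit mOC against pOC had 23 regions in 14 genes, 100% higher in mOC, with a difference of 39.1 points, and mOC against BMM had 1 region in 1 gene (100% lower in mOC, -32.6 points). Shares of all listed regions under that limit were not computed, so the 100% is no result about the members. The dip of BMM, pOC and mOC was seen under that limit in 8 regions listed in both tables with pOC. With at least 30 points, pOC against BMM had 102 regions at -37.6 points and mOC against pOC 72 at 38.9 points. For mOC against BMM there were 10 in 10 genes, at -5.22 points. The share of them lower in mOC was 50% in place of 65.4%, which is among the 78 values named below. With at least 30 reads the numbers were 124, 75 and 11 regions in the same order, the last in 8 genes at -17.1 points. Gene spans widened by 2000 bp gave -8.93 points for mOC against BMM, and an unweighted mean put its mOC level at 73.4%. Reads counted only once per strand and region left 0, 0 and 0 regions at an adjusted p of at most 0.05, and 58, 36 and 6 at an unadjusted one. These limits keep fewer regions by construction. For the other 78 values, including those without Gldc, without Hk1 and without regions in another gene (added after seeing the data, as was the adjusted count), the change stayed within the limits used. No library could be left out. No paired analysis was possible because each stage has 1 library. Regions of 16 to 30 reads fix a level only loosely.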
